A study of Tribolium castaneum with 16 samples.

Results

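In the red flour beetle Tribolium castaneum, 607 of the 3148 regions of open chromatin that were called in every sample of a developmental series spanned 800 bp or more once the peaks of all samples had been merged. These 607 broad regions made up 19.3% of the shared regions, and the other 2541 shared regions are called narrow here. They were chosen by measured values. Overlapping peaks of all 14 lists, by 1 bp or more, were joined, which gave 45389 regions on the 10 linkage groups, and a region was kept when all 14 lists had a peak in it and its merged width reached 800 bp. Merged width and presence in every list are therefore descriptions of the broad regions and not findings about them.

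Open chromatin was mapped by FAIRE-seq, a method that shears cross-linked chromatin and recovers nucleosome-poor DNA from the aqueous phase of a phenol extraction. The 14 libraries fell into 6 groups. The larval groups came from last-instar larvae of the pu11 enhancer-trap strain. They were brain, titled CNS, with 2 samples, and lateral epidermis with the attached wing disc of a thoracic segment, with 3 samples from T3, the hindwing-bearing segment, and 3 from T2, the elytron-bearing segment. Larvae for the epidermis samples were picked by activity of the enhancer trap. The embryonic groups were whole embryos of the Georgia I strain at 3 ages, with 2 samples of 0 to 24 h, 2 of 24 to 48 h and 2 of 48 to 72 h. The labels gave no further treatment for any group. Fixation lasted 20 min for CNS and 30 min for the other groups, and the recorded index had 6 nt in CNS, 8 nt in epidermis and 5 nt in embryos. Tissue, strain, stage and index length changed together between larva and embryo and cannot be told apart. Between CNS and epidermis, tissue, fixation time and index length changed together and cannot be told apart either. The peak lists hold no genes, so the labelled tissues were not checked against markers here.

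Open regions of this kind mark stretches where nucleosomes are displaced, as they are at active promoters, at enhancers and at insulators. Promoters of genes that every cell uses are a familiar class of regions open in all tissues. A wide merged region can arise when one long stretch is accessible, or when neighbouring elements lie close enough for their peaks to meet. A whole embryo or a dissected tissue mixes cell types, and fewer cells with an open site cannot be told apart from a less open site in each cell.

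The lists held between 9725 and 36080 peaks. The background depth of a list, meaning the number of extended reads expected over a base, was recovered from the authors' fold and p-values and ranged from 1.89 to 9.85. The deepest list was CNS replicate 1, and the shallowest was replicate 1 of 24 to 48 h embryos. Broad regions took up between 4.15% and 9.61% of the bases called in a list.

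Merged width of the broad regions had a median of 999 bp, with an interquartile range of 879 to 1144.5 bp and extremes of 800 and 9228 bp. Narrow regions had a median of 479 bp. The distribution was steep, since 304 broad regions measured under 1000 bp, 260 measured from 1000 to under 1500 bp, 28 measured from 1500 to under 2000 bp, and 15 measured 2000 bp or more. The narrowest member, B404 at ChLG7:11260399-11261198, was 800 bp wide with 15 peaks and 328 bp called in every list. The next, B147 at ChLG3:10047716-10048516, was 801 bp wide with 16 peaks and no base called in every list. Just outside, 2 of the regions 799 bp wide, at ChLG1:1378164-1378962 and ChLG2:19658568-19659366, held 23 peaks each, with 171 and 159 bp called in every list. The boundary thus runs through a continuum of widths.

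The breadth did not belong to every sample. No broad region had a single peak of 800 bp or more in all 14 lists. At least 1 list had such a peak in 520 of the 607 regions, 7 or more lists had one in 50 regions, and in 87 regions every peak was shorter than 800 bp. The bases called in all 14 lists, the core, had a median of 190 bp in broad regions, which was 18.9% of their merged width. In narrow regions the core had a median of 162 bp, or 37.7% of the width. No core reached 800 bp, and 71 broad regions (11.7%) had no base called in every list, against 96 narrow regions (3.78%). The regions were shared by all samples, and most of their width was not. Choice by merged width favours a smaller core share, so the contrast with narrow regions is a description only.

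Wide single peaks came mainly from larval CNS and from the youngest embryos. A peak of 800 bp or more was present in 342 and 343 broad regions in the 2 CNS lists. The T3 lists had 43, 33 and 36 such regions, and the T2 lists had 2, 22 and 22. The lists of 0 to 24 h embryos had 284 and 344, those of 24 to 48 h had 64 and 123, and those of 48 to 72 h had 62 and 19. Both lists of a group had a peak of that width at 269 regions for CNS and at 273 for 0 to 24 h embryos, at 55 for 24 to 48 h and at 15 for 48 to 72 h. All 3 T3 lists had one at 14 regions and all 3 T2 lists at 2. The lists of CNS and of 0 to 24 h embryos stood apart from the other 10. Those of 24 to 48 h lay above those of 48 to 72 h, though only by 64 against 62 regions at the closest.

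The widest peak of a broad region had a median width of 824 and 825 bp in the CNS lists. It was 413, 400 and 375 bp in the T3 lists and 245, 378 and 373 bp in the T2 lists. In embryos the median was 779 and 836 bp at 0 to 24 h, 433 and 517 bp at 24 to 48 h, and 427 and 319 bp at 48 to 72 h. The groups of CNS and 0 to 24 h embryos did not overlap with the rest. Peaks were longer in general in those lists, so each median was divided by the median of the narrow regions in the same list. The widest peak of broad regions was 2.16 and 2.19 times as wide as that of narrow regions in CNS. The same ratio was 1.18, 1.19 and 1.14 in T3, and 1.09, 1.16 and 1.14 in T2. It was 2.44 and 2.38 at 0 to 24 h, 1.82 and 1.96 at 24 to 48 h, and 1.82 and 1.505 at 48 to 72 h. In epidermis the peaks of a broad region were therefore little wider than those of a narrow one.

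**Figure D1:**
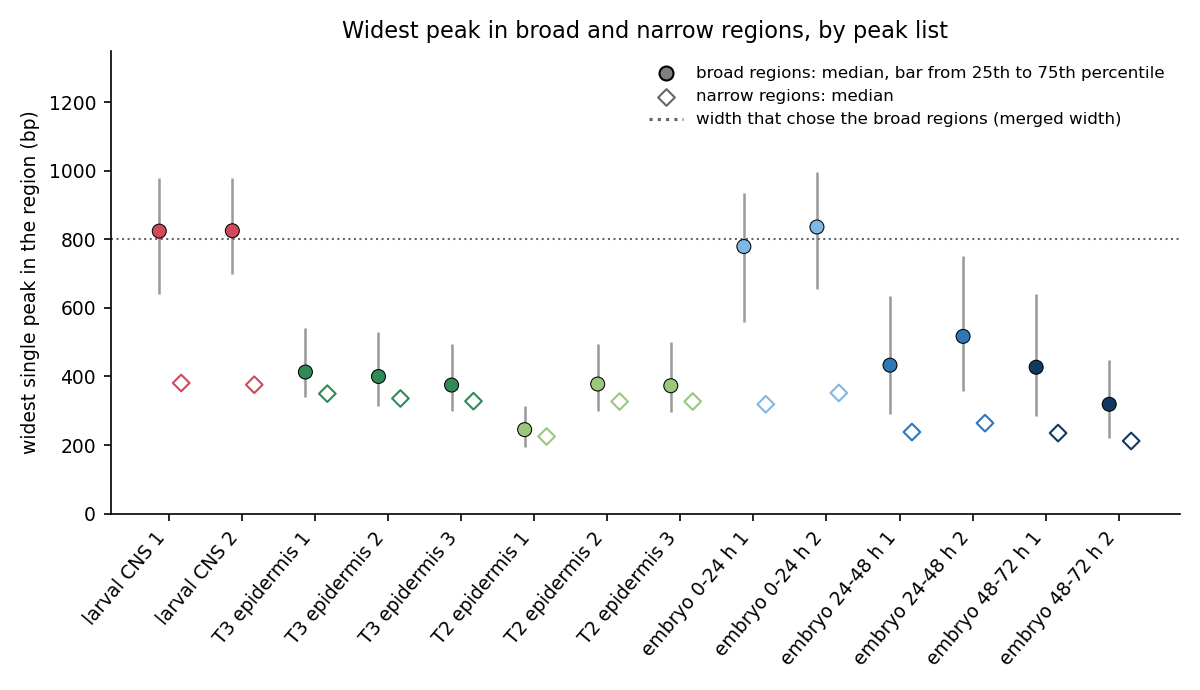
Width in bp of the widest single peak in each region, by list, for larval and embryonic samples on the x axis. Filled circles are the median over 607 broad regions with a bar from the 25th to the 75th percentile, open diamonds are the median over 2541 narrow regions, and the dotted line marks 800 bp. CNS and 0 to 24 h embryos have medians of 779 to 836 bp, and T3 and T2 epidermis lie between 245 and 413 bp.

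Depth and the number of peaks also differed between the lists. Background depth was 9.85 and 5.91 in CNS, 4.16, 4.21 and 5.77 in T3, and 1.96, 3.78 and 3.59 in T2. In embryos it was 3.71 and 4.72 at 0 to 24 h, 1.89 and 2.08 at 24 to 48 h, and 1.92 and 2.53 at 48 to 72 h. In T2 the shallowest list, replicate 1, had the lowest width ratio of its group, 1.09. In T3 the deepest list, replicate 3, had the lowest of its group, 1.14. At 24 to 48 h replicate 1, at a depth of 1.89, had a ratio of 1.82, and replicate 2, at 2.08, had 1.96. In CNS, at 0 to 24 h and at 48 to 72 h the deeper list had the lower ratio. It was 2.16 against 2.19 in CNS, 2.38 against 2.44 at 0 to 24 h, and 1.505 against 1.82 at 48 to 72 h. The 4 lists with wide peaks were also the longest, with 36080 and 34095 peaks in CNS and 31485 and 33884 peaks at 0 to 24 h, while the longest other list, T3 replicate 3, had 24689. The parts of depth and of list length in the width of the peaks were not tested.

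Because every list helped to choose the regions, the ratio was measured again with regions chosen only on the lists of the other groups. Medians were taken over the regions in which the measured list had a peak. That was 76.2% of the broad regions in T2 replicate 1 and 86.8% in 48 to 72 h replicate 2. In the other lists it was 96.5% to 100%. Over 511 broad regions chosen without CNS, the ratio in CNS averaged 2.18 ± 0.07 (SD, n = 2). Over 557 regions chosen without T3 it averaged 1.15 ± 0.01 in T3 (SD, n = 3), and over 795 chosen without T2 it averaged 1.12 ± 0.02 in T2 (SD, n = 3). In embryos, each time over regions chosen without the stage measured, it averaged 2.39 ± 0.08 at 0 to 24 h over 548 regions, 1.89 ± 0.13 at 24 to 48 h over 616, and 1.63 ± 0.18 at 48 to 72 h over 704 (SD, n = 2 each). Each of these means lay within 0.03 of the corresponding mean over the 607 regions. The ratio of each group was thus about the same when its own lists had no part in the choice, over the regions in which they had a peak.

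The ratios differed when only some tissues chose the regions. A merge of the 6 epidermis lists alone gave 269 broad regions among those called in all 6. In these the widest peak was 1.34 to 2.75 times as wide as in narrow regions across the T3 lists and 1.36 to 2.28 times across the T2 lists. The lowest ratio of each segment came from its replicate 1. These ratios describe the lists that chose the regions and are no independent measure. Of those 269 regions, 64.7% and 47.6% were called in the 2 CNS lists, against 91.1% and 89.6% of the 6530 narrow regions chosen on the same lists.

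The outer edges came mainly from CNS, 0 to 24 h embryo and T3 lists. At least 1 edge of a broad region was set by a CNS list in 375 regions, by a T3 list in 268, by a T2 list in 102, by a 0 to 24 h list in 283, by a 24 to 48 h list in 27 and by a 48 to 72 h list in 5. Lists of CNS or 0 to 24 h embryos alone set both edges of 243 regions (40.03%). The peaks of a list covered a median of 92.0% and 91.4% of the merged region in CNS. The median covered share lay between 26.7% and 51.8% in the 6 epidermis lists. It was 85.8% and 91.0% in 0 to 24 h embryos.

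Across the region, epidermis left the middle uncovered more often than the flanks. At the middle of the merged region, 90.6% of broad regions lay under a peak in CNS on average over its lists, against 44.6% in T3 and 36.5% in T2. At 200 bp to the right of the middle the shares were 90.4% in CNS, 57.1% in T3 and 48.7% in T2. At 200 bp to the left they were 91.4%, 54.4% and 45.4% in the same groups. In embryos the share at the middle was 90.6% at 0 to 24 h, 70.5% at 24 to 48 h and 58.1% at 48 to 72 h. Cover was thus level across the central stretch in CNS and 0 to 24 h embryos and dipped at the middle in both epidermis groups.

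**Figure D2:**
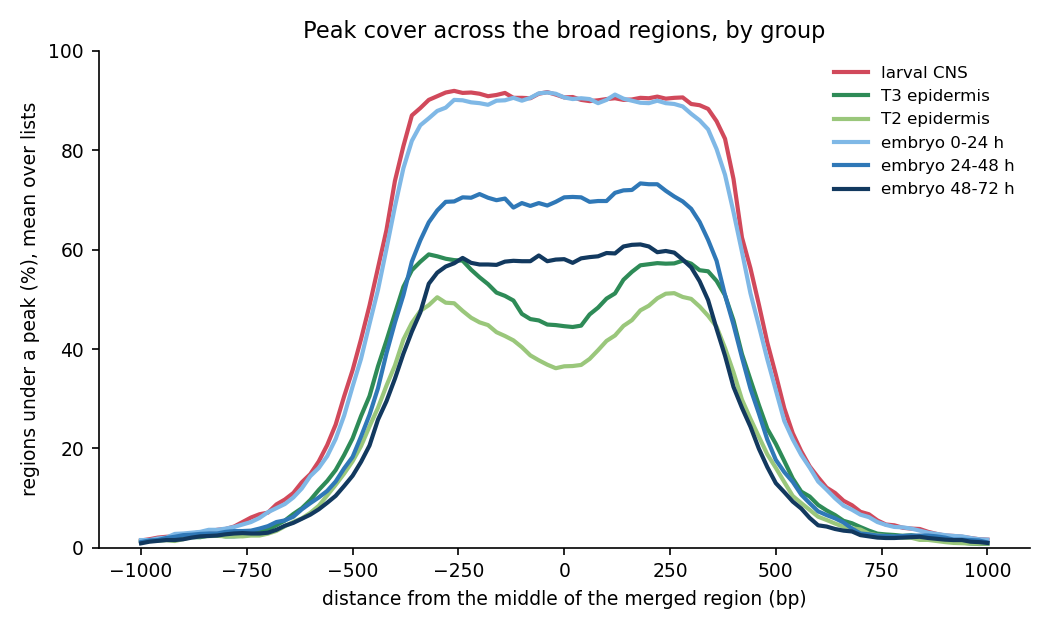
Percentage of the 607 broad regions that lay under a peak (y axis, mean over the lists of a group) by distance in bp from the middle of the merged region (x axis), with 1 line per group. CNS and 0 to 24 h embryos both stand at 90.6% at the middle, while T3 and T2 dip there to 44.6% and 36.5%.

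Many broad regions held more than 1 peak in a list. Of the 607, 210 (34.6%) had 2 or more peaks in at least 7 lists, against 42 narrow regions (1.65%), and 55 had exactly 1 peak in every list, against 2032 narrow regions. The share of broad regions split into several peaks was 29.5% and 26.5% in CNS, 40.4%, 35.4% and 37.4% in T3, and 21.7%, 37.2% and 34.4% in T2. It was 29.3% and 26.03% at 0 to 24 h, 48.8% and 49.8% at 24 to 48 h, and 48.1% and 38.6% at 48 to 72 h. Neighbouring summits of the same list in a broad region lay a median of 497 bp apart, with an interquartile range of 374 to 659.25 bp. When summits of all lists were grouped wherever they lay within 100 bp of the next, 186 broad regions (30.6%) had at least 2 groups of summits that each drew on 7 or more lists. A narrow region has less room for separate summits, so these shares are set side by side without a test.

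The region with the widest core showed this layout in a simple form. B319, at ChLG5:12699913-12701469, measured 1557 bp, and its core of 796 bp fell into 2 stretches, the longer of 562 bp. It was a single peak of 1537 and 1541 bp in CNS and of 1519 and 1531 bp at 0 to 24 h, and a pair of peaks in each of the other 10 lists. Its strongest summit lay between 452.5 and 399.5 bp left of the middle in all 14 lists. The samples differed in whether the gap between the elements was called, and not in which element was stronger.

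B457, at ChLG8:1970759-1972679, had a core of 5 stretches that added up to 750 bp of 1921 bp. It held 50 peaks over the 14 lists. The 48 to 72 h lists called it as 1 peak each, of 1838 and 1793 bp, whereas CNS had 5 and 4 peaks. Its widest peaks thus came from the oldest embryos. B126, at ChLG2:18293897-18295037, had a core of 747 bp in 2 stretches, 65.5% of its 1141 bp. A peak of 800 bp or more covered it in 9 lists, including T3 replicates 1 and 2 and T2 replicate 3.

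The 3 widest regions lay well above the median width. B263, at ChLG4:8559032-8568259, spanned 9228 bp and held 80 peaks, the most of any broad region, and no base was called in all 14 lists. Its widest peak measured 184 and 164 bp in CNS, 204, 8893 and 9190 bp in T3, and 427, 5085 and 8878 bp in T2. In embryos it measured 282 and 176 bp at 0 to 24 h, 3672 and 767 bp at 24 to 48 h, and 4789 and 1990 bp at 48 to 72 h. The 4 lists with the longest peaks were replicates 2 and 3 of T3 and T2, and replicate 1 of both segments had short peaks. B273, at ChLG4:10532164-10537265, spanned 5102 bp with 52 peaks, and its widest peak was 4629 bp in T3 replicate 3 against 259 and 263 bp in CNS. All 14 of its strongest summits nevertheless fell between 2435 and 2345 bp left of the middle. B173, at ChLG3:18578791-18581468, spanned 2678 bp with 48 peaks and had several peaks in every list, the longest of 2311 bp in CNS replicate 2.

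**Figure D3:**
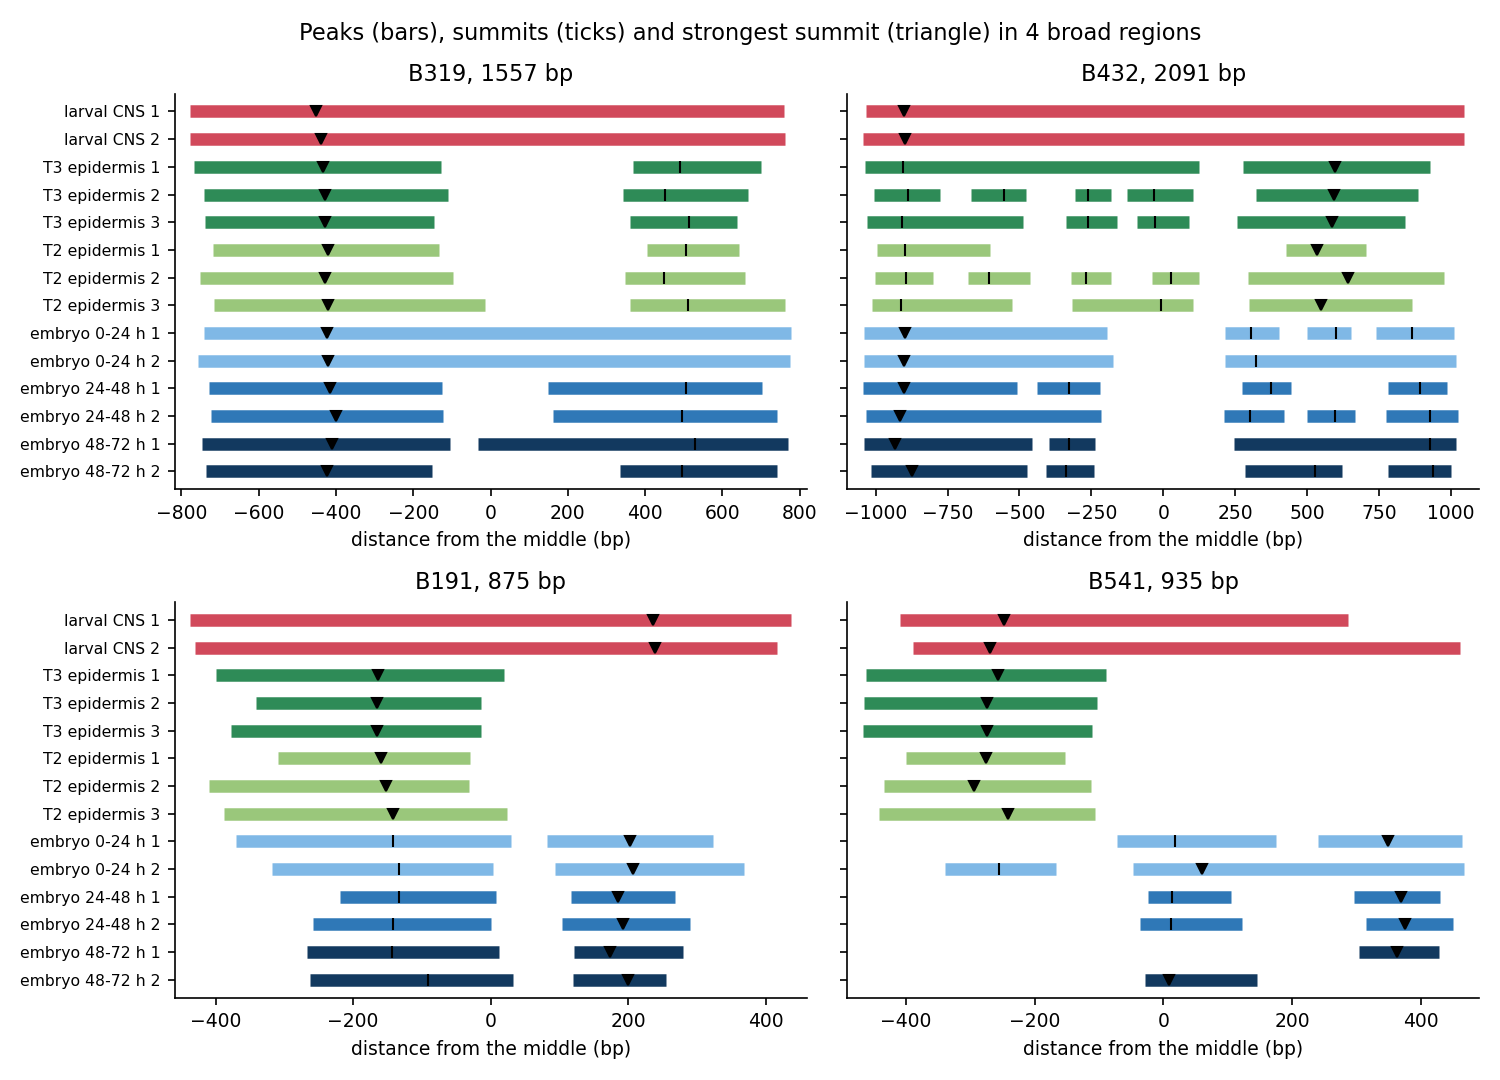
Peaks in 4 broad regions, with distance in bp from the middle of the region on the x axis and the 14 lists on the y axis. Bars are peaks, ticks are summits and triangles mark the strongest summit of a list. B319 is joined in CNS and 0 to 24 h embryos with its strongest summit in place everywhere, while in B432, B191 and B541 the strongest summit changes side between groups.

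The strongest summit of a broad region moved more often between CNS, epidermis and embryo than within a group. The strongest summits of all 14 lists fell within 100 bp of each other in 235 broad regions (38.7%), against 1732 narrow regions (68.2%). Between lists of the same group, 11.7% of broad regions on average had strongest summits over 100 bp apart, with 8.07% to 18.0% over 10 pairs of lists. Between T3 and T2 lists the mean was 10.2%, which lay inside the range for lists of the same group. It was 29.4% between CNS and epidermis and 32.2% between epidermis and embryo, and the lowest of those 48 pairs, 27.7%, was above the highest pair within a group. Different embryonic stages had a mean of 21.5%, and CNS set against 0 to 24 h embryos had 24.9%. The narrow regions followed the same order at a lower level, with 3.58% within a group, 9.38% between CNS and epidermis and 10.8% between epidermis and embryo.

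**Figure D4:**
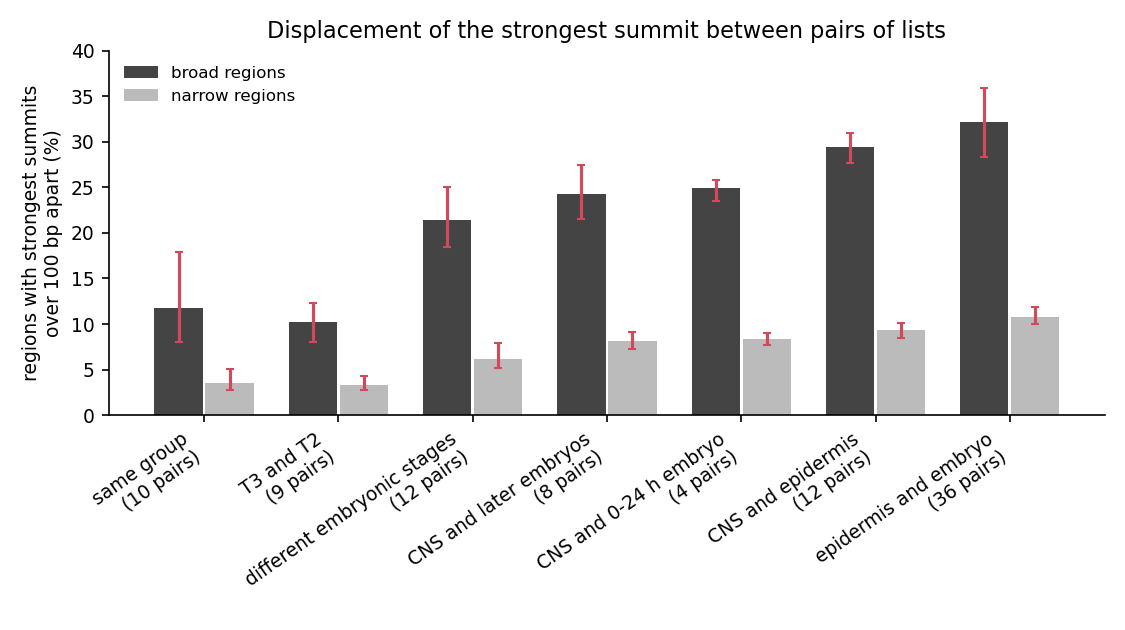
Percentage of regions whose strongest summits lay over 100 bp apart between 2 lists (y axis), by kind of pair (x axis), for broad (dark) and narrow (light) regions. Bars are means over pairs of lists and the red lines run from the lowest to the highest pair. In broad regions the mean is 11.7% for pairs of the same group and 32.2% between epidermis and embryo.

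In 88 broad regions (14.5%) the strongest summits of both CNS lists lay at least 100 bp beyond those of all 6 epidermis lists, on one side. The share over all 3148 regions called in every list was 5.56%. The strongest summits of the 6 epidermis lists lay at least 100 bp apart from those of all 8 other lists in 30 broad regions (4.94%), against 1.68% of all shared regions. Those of the 8 larval and 6 embryonic lists lay apart in 8 broad regions (1.32%), against 0.445% of all shared regions, and the count was 16 without CNS replicate 2. Between 48 to 72 h and 0 to 24 h embryos, with 2 lists on each side, 66 broad regions (10.9%) were split, against 4.38%. Between T3 and T2 2 broad regions (0.329%) were, against 0.127%, and leaving out 1 T3 or T2 list gave 2 to 6. Width bounds how far apart summits can lie, so the shares in broad regions are not independent of how the regions were chosen.

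B432, at ChLG7:16416194-16418284, showed the displacement over all 14 lists. Its strongest summit lay 900.5 and 896.5 bp left of the middle in CNS, and between 931.5 and 873.5 bp left in the 6 embryo lists. In epidermis it lay 586.5 to 596.5 bp right of the middle in T3 and 532.5 to 640.5 bp right in T2. The gap between CNS and epidermis was 1429 bp. Weaker peaks of epidermis were also called over the left element, and both CNS lists covered the whole region with 1 peak. B454, at ChLG7:18865088-18867752, had the widest gap, 1752 bp. There the 48 to 72 h embryo summits lay on the epidermis side, 865.5 and 854.5 bp right of the middle, whereas those of the 4 younger embryo lists lay on the CNS side.

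In B191, at ChLG3:31166853-31167727, the strongest summit lay 236.5 and 238.5 bp right of the middle in CNS and 173.5 to 207.5 bp right in embryos. All 6 epidermis lists had it 142.5 to 164.5 bp left. The epidermis lists had 1 peak each, over the left element only, and the embryo lists had 2 peaks each. B541, at ChLG9:9792493-9793427, divided larva from embryo instead. Its strongest summit lay between 294.5 and 241.5 bp left of the middle in the 8 larval lists, and between 8.5 and 375.5 bp right of it in the 6 embryo lists. No base of B541 was called in every list, although every list had a peak in it.

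The strength of broad regions was near the middle of the shared set at the median. Fold enrichment is the authors' own value of a peak within its list, so the strongest fold of a region was ranked among the 3148 shared regions of the same list and is given as a percentile. The median percentile of broad regions lay between 45.4 and 55.6 over the 14 lists. Of them, 81 (13.3%) were in the upper part of the ranking, above the 50th percentile, in every list, against 291 narrow regions (11.5%). Local background at the strongest summit, relative to the list background, had a median of 2.30 in broad and 2.15 in narrow regions. At the top of the ranking the lists differed. Above the 90th percentile lay 12.03% and 13.01% of broad regions in CNS, 8.24% to 10.05% in T3 and 8.40% to 10.7% in T2. In embryos the share was 12.03% and 11.9% at 0 to 24 h, 15.2% and 14.2% at 24 to 48 h, and 13.3% and 13.01% at 48 to 72 h. Of narrow regions, 8.78% to 10.4% lay there over the 14 lists.

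A few broad regions were at the top of every list. The strongest fold lay above the 90th percentile in all 14 lists in 12 broad regions (1.98%) and 11 narrow regions (0.433%). The strongest peak of a region gave its fold, and broad regions held a median of 19 peaks over the 14 lists, against 14 in narrow regions. The contrasts with narrow regions at the top of the ranking are therefore descriptions only. B15, at ChLG1:3874710-3875805, ranked highest by its lowest percentile, which was 98.2, in T2 replicate 2. It was above 99 in both CNS and all 6 embryo lists. Its strongest summit fell between 388 and 364 bp left of the middle in all 14 lists, and its widest peak measured 1043 and 1024 bp in CNS but 306 to 323 bp in T3 and 243 to 309 bp in T2. Replicates could differ as well, with 534 and 1028 bp at 24 to 48 h. A summit that every sample shared thus lay in called peaks of very different length. B532, at ChLG9:7710847-7711816, and B74, at ChLG2:5749443-5750510, followed with lowest percentiles of 97.8 and 96.5, both in CNS replicate 1.

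At the other end, B367, at ChLG6:1727744-1728599, had a highest percentile of 3.29 over the 14 lists. Local background at its summit was a median of 7.05 times that of the list. B470, at ChLG8:7008319-7009375, ranked between 0.0159 and 15.5, with the highest values in embryos. B346, at ChLG5:15259958-15260999, ranked at 4.70 and 5.13 in CNS and between 0.0476 and 5.96 in embryos, but between 69.2 and 91.0 in the 6 epidermis lists. B367 thus ranked low in all samples, whereas B346 ranked high in the 6 epidermis lists and low in the others.

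Ranks were compared between groups with limma on normal scores of the within-list ranks, fitted over all 3148 shared regions and adjusted over them by Benjamini-Hochberg at 0.05. A difference is in standard deviations of the ranking. The labels do not say that replicates came from separate cultures or animals, so p-values measure the spread between these samples. CNS differed from epidermis in 299 broad regions (49.3%), against 50.7% of all shared regions. CNS was higher in 158, or 26.03%, against 24.0% of all, and lower in 141, or 23.2%, against 26.8% of all. With background depth as a covariate 190 were called (31.3%), against 31.6% of all. Of these, CNS was higher in 120, or 19.8%, against 15.2% of all, and lower in 70, or 11.5%, against 16.4% of all. The broad regions thus differed between the larval tissues about as often as any shared region.

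B381, at ChLG7:1190774-1191664, had the smallest adjusted p among those higher in CNS. Its percentile was 99.7 in both CNS lists, 54.1, 62.8 and 60.4 in T3, and 29.9, 28.3 and 45.9 in T2. The difference was 2.83 ± 0.20 (SE; limma adjusted p = 9.5e-08), and the groups did not overlap. B381 ranked between 97.1 and 99.8 in embryos as well. In B191 the percentile was 93.5 and 94.0 in CNS and 8.12 to 13.3 in the 6 epidermis lists, a difference of 2.81 ± 0.21 (SE; limma adjusted p = 1.3e-07). Its embryo lists ranked between 16.0 and 34.8, so CNS stood above all other groups. This is the region whose right element was called only outside epidermis.

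Among the regions lower in CNS, B168 had the smallest adjusted p. B168, at ChLG3:17917371-17918811, ranked at 0.111 and 0.238 in CNS and between 77.7 and 89.1 in the 6 epidermis lists, a difference of -3.98 ± 0.25 (SE; limma adjusted p = 3.0e-08). Embryos ranked between 0.238 and 4.22 there. Its strongest summit lay between 420.5 and 467.5 bp right of the middle in epidermis, and 317.5 and 347.5 bp left in CNS. B241, at ChLG4:5685010-5686348, ranked at 6.89 and 6.70 in CNS, against 82.7 to 93.8 in epidermis, a difference of -2.73 ± 0.23 (SE; limma adjusted p = 4.3e-07). Neither region had a peak of 800 bp or more in any list, and their merged widths of 1441 and 1339 bp came from shorter peaks placed side by side. The narrowest member, B404, also ranked lower in CNS, at 8.69 and 7.96, against 58.7 to 93.7 in epidermis.

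**Figure D5:**
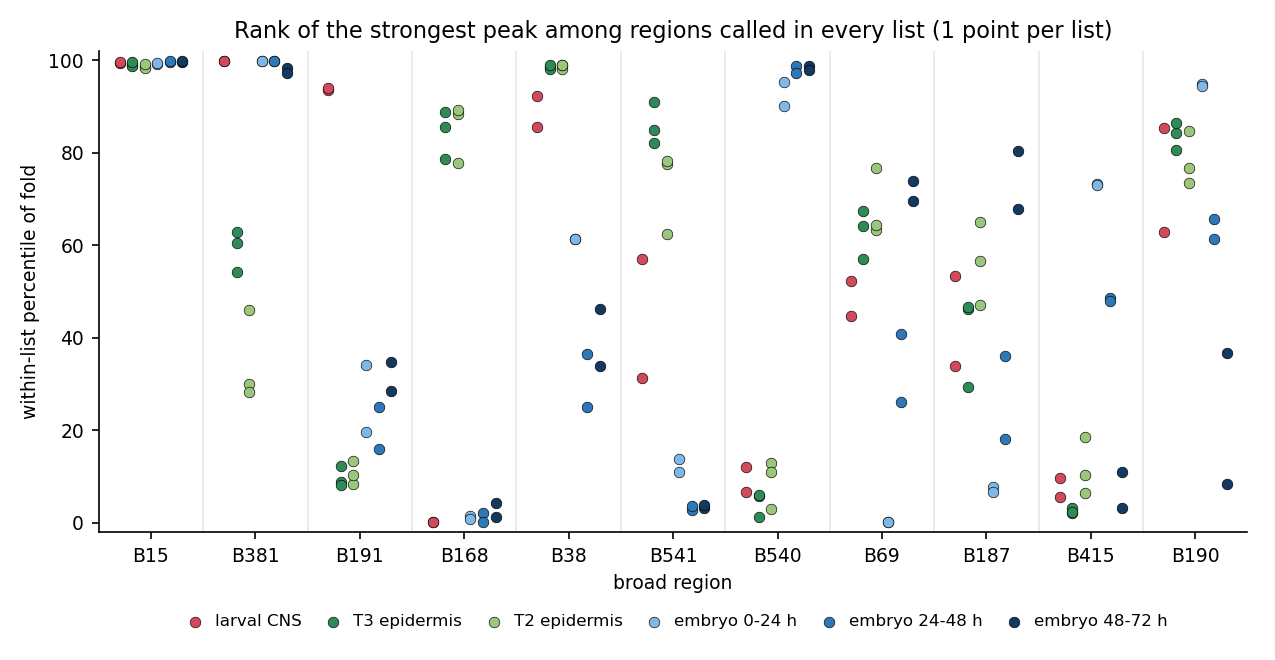
Within-list percentile of the strongest fold (y axis, 0 to 100, among 3148 shared regions) for 11 named broad regions (x axis), with 1 point per list coloured by group. B15 lies above 98 in all 14 lists, while B168 lies below 5 in CNS and embryos and between 77.7 and 89.1 in epidermis.

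Larva and embryo were compared as the mean of the 3 larval against the mean of the 3 embryonic groups. They differed in 363 broad regions (59.8%), against 58.6% of all shared regions. Larva was higher in 137, or 22.6%, against 27.9% of all, and lower in 226, or 37.2%, against 30.7% of all. With depth as a covariate 159 were called (26.2%), against 28.6% of all. Of these, larva was higher in 73, or 12.03%, against 14.5% of all, and lower in 86, or 14.2%, against 14.1% of all. The median difference was -0.20 over broad regions and -0.04 over all shared regions, and with depth as a covariate it was -0.04 and -0.01. The lean of the broad regions toward embryo was thus smaller with depth in the model.

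B540, at ChLG9:9432404-9433542, was the clearest case lower in larva. Its percentile was 6.53 and 12.02 in CNS, 5.67, 6.004 and 1.22 in T3, and 3.05, 12.9 and 11.0 in T2. The 6 embryo lists ranked it between 90.04 and 98.7. The difference was -3.40 ± 0.17 (SE; limma adjusted p = 9.7e-09), and no larval list reached any embryo list. Its strongest summit lay 447.5 to 425.5 bp left of the middle in embryos and 390.5 to 356.5 bp left in 7 of the 8 larval lists, with T3 replicate 3 at 96.5 bp right. B381 was the second by adjusted p, at -1.75 ± 0.13 (SE; limma adjusted p = 1.7e-07), a difference that lay in epidermis, since CNS ranked with the embryos.

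Of those higher in larva, B38, at ChLG1:9825743-9826662, ranked at 92.2 and 85.6 in CNS and between 98.1 and 99.0 in the 6 epidermis lists, against 25.0 to 61.4 in embryos. The difference was 2.04 ± 0.14 (SE; limma adjusted p = 5.2e-08). Its strongest summit stayed between 290 and 238 bp left of the middle in all lists, so the rank changed at a fixed site. B541 ranked at 57.1 and 31.3 in CNS and 62.4 to 90.9 in epidermis, against 2.68 to 13.8 in embryos, a difference of 2.13 ± 0.15 (SE; limma adjusted p = 8.4e-08). In B541 the rank and the site of the summit changed together.

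Over embryogenesis, 48 to 72 h embryos differed from 0 to 24 h embryos in 205 broad regions (33.8%), against 33.8% of all shared regions. The older embryos were higher in 117, or 19.3%, against 17.4% of all, and lower in 88, or 14.5%, against 16.4% of all. This count rested on single lists, since it fell when any 1 list of these stages was left out, which leaves 1 list in a group. The balance of directions turned in some of these fits. Both also happened over all shared regions. The median difference over broad regions was 0.19 to 0.23 in these fits, against 0.20 with all lists. Over all shared regions it was 0.11 to 0.13, against 0.12. The higher median of broad regions did not hold in every setting. The medians over broad and all shared regions were 0.08 and 0.09 with depth as a covariate. They were 0.06 and 0.10 with ranks by mean fold, and 0.09 and 0.07 with ranks by −log10 p. With scaffolds they were 0.16 and 0.12, with peaks of −log10 q of 2 or more 0.21 and 0.13, and with replicate number in the fit 0.20 and 0.12. With depth as a covariate the count was 62 (10.2%), against 11.5% of all. The older embryos were higher in 20, or 3.29%, against 4.89% of all, and lower in 42, or 6.92%, against 6.64% of all. Ranking by the mean fold of a region called 157 broad regions (25.9%), against 29.1% of all, with 77 higher and 80 lower. No balance between higher and lower ranks held across these settings.

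B69, at ChLG2:2252015-2253023, climbed through the 3 stages. Its percentile was 0.238 and 0.175 at 0 to 24 h, 26.2 and 40.8 at 24 to 48 h, and 69.5 and 73.9 at 48 to 72 h. The difference between the last and the first stage was 3.45 ± 0.25 (SE; limma adjusted p = 1.8e-06). All 8 larval lists ranked it between 44.8 and 76.7, close to the oldest embryos. B187, at ChLG3:30545637-30546494, ranked at 7.64 and 6.53, then 36.01 and 18.0, then 80.2 and 67.8 over the same stages, with a difference of 2.13 ± 0.30 (SE; limma adjusted p = 0.00021). The lists of the 3 stages did not overlap in either region.

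B415, at ChLG7:14056822-14057676, descended over embryogenesis. It ranked at 73.2 and 73.0 at 0 to 24 h, 48.6 and 47.8 at 24 to 48 h, and 3.16 and 11.0 at 48 to 72 h, a difference of -2.16 ± 0.28 (SE; limma adjusted p = 0.00014). Larval lists ranked it between 2.05 and 18.5. B190, at ChLG3:31044706-31045833, ranked at 94.7 and 94.3, then 61.4 and 65.7, then 8.34 and 36.7, with a difference of -2.46 ± 0.33 (SE; limma adjusted p = 0.00017). Larval lists ranked B190 between 62.8 and 86.4, but at another site. Its strongest summit lay 360 to 402 bp right of the middle in the 6 embryo lists and 142 to 391 bp left of it in the 8 larval lists. A rank taken over the whole region thus joined different elements in B190.

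T3 and T2 epidermis, the hindwing and elytron segments, gave 0 broad regions past the threshold in limma after adjustment, against 0% of all shared regions. At an unadjusted p under 0.05, 52 broad regions (8.57%) passed, against 10.5% of all shared regions. A p that misses the threshold does not show that the segments were alike. With T3 replicate 1 left out 2 shared regions passed after adjustment, neither of them broad.

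Broad regions lay on all 10 linkage groups. They made up between 11.2% of the shared regions on ChLG6, with 17 of 152, and 24.3% on ChLG4, with 82 of 338. Another region called in every list lay within 10 kb of 346 of the 607 broad regions, against 1289 of the 2541 narrow regions. Another broad region lay within 10 kb of 130. The closest pair of broad regions, at a gap of 77 bp, included B454. No test was made of these positions.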

How the data were processed

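Each deposited file was a list of narrow peaks from 1 FAIRE library. The authors' columns held a fold enrichment, which is a ratio over local background, and −log10 of the p-value and of the q-value. The deposited score was not used. Per the submitters' processing notes, Trimmomatic 0.32, Bowtie2 2.2.3, SAMtools 0.1.12a, deepTools 2.5.2 and MACS2 2.1.1.20160309 were named, without roles or order. The genome build was not given in the sources used here. The smallest −log10 q in a deposited list was between 1.30 and 1.36. The 2 genomic input libraries were not analysed here. The members, lists and comparisons were chosen with earlier results of these data known.

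Coordinates are those of the deposited lists, counted from 1. No sequence or gene annotation was used here. Pileup and background were solved from fold = (pileup + 1) / (background + 1) and the Poisson p-value of each of the 323093 peaks, and all but 7 pileups were whole within 0.02. The total number of reads was unknown. Comparing depths between lists assumes the same fragment extension in all of them.

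Ranks of the strongest fold over the 3148 shared regions of a list were turned into normal scores and fitted in limma 3.58.1 (R 4.3.3) with 6 group means over 14 libraries. The fit was tested on simulated data. Merging and counting used Python 3.11.15 with pandas 2.3.3. Named regions were the 3 widest, the 3 with the highest and the 3 with the lowest minimum percentile, the 3 with the widest core, the 3 with the most peaks, 2 on each side of the width threshold, the 2 with the widest gap between CNS and epidermis summits, and the 2 with the smallest adjusted p in each direction of a contrast. Alternatives were other peak thresholds, merging and width rules, ranks by −log10 p or mean fold, scaffolds, depth and replicate number in the fit, and leaving out each list.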

Additional observations from a re-analysis of the deposited data

How the results depend on the processing

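The number of broad regions was 355 when only the 50% of peaks with the highest −log10 p were kept, 35 where every list had to cover 50% of the region, 1304 at a width of 600 bp and 303 at 1000 bp. The number of narrow regions was 1348 with those peaks and 735 with the cover rule. Leaving out 1 list gave 564 to 765 broad and 2550 to 3239 narrow regions. With depth as a covariate, 190 broad regions were called between CNS and epidermis, 159 between larva and embryo and 62 between 48 to 72 h and 0 to 24 h embryos, and the share of higher calls was 63.2%, 45.9% and 32.3%, against 52.8%, 37.7% and 57.1% without it. Leaving out 1 list gave 203 to 313 calls for CNS, 299 to 367 for larva, 59 to 239 for 48 to 72 h embryos and 0 to 0 for T3. With the replicate block the counts were 293 (48.3%), 336 (55.4%), 211 (34.8%) and 0, against 49.0%, 56.4%, 34.5% and 0% of all. None moved by over 1.5 times. For same-numbered replicates of different groups, deviations from the group means correlated at 0.02 on average over 31 pairs, from -0.19 to 0.24. A mean over all groups cannot show whether replicates of particular groups, such as T3 and T2, were paired. Regions with separate summits numbered 89 to 113 for CNS and epidermis, 8 to 16 for larva and embryo, 31 to 38 for epidermis and the other lists and 2 to 6 for T3 and T2 when 1 list was left out, and 1 for T3 and T2 at a gap of 200 bp. The cause of these changes was not tested. The splits other than CNS and epidermis, and the regions chosen on some lists only, were added after seeing the data. All 252 alternative values of the 12 contrasts printed for 11 named regions as the 2 with the smallest adjusted p in a direction kept their direction and their side of the threshold. Reads per list are unknown, and 2 lists per group limit the precision of the embryonic and CNS values. The planned annotation of the regions was not run.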

Other observations

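Broad regions chosen on subsets of the lists gave further values. The 8 CNS and embryo lists alone gave 1096 broad regions. Each ratio was taken over the regions in which the measured list had a peak. The epidermis lists had one in 48.3% to 75.5% of those 1096 regions and in 51.7% to 76.5% of the 5180 narrow ones. Where they did, the widest peak was 1.06 to 1.10 times as wide as in narrow regions across the T3 lists. It was 1.08 to 1.09 times as wide across the T2 lists. The 6 epidermis lists alone gave 269, in which the widest peak had a median of 445 bp in T3 replicate 1 and up to 855 bp in the other T3 lists, and of 277 bp in T2 replicate 1 and up to 695 bp in the other T2 lists. The epidermis lists chose those regions, so these widths are a description only. The 2 CNS lists had a peak in 64.7% and 47.6% of those 269 regions. Where they did, the widest peak was 1.42 and 2.17 times as wide as in narrow regions.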
